A study of Homo sapiens with 6 samples.

Results

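The genes described here are 10 targets of the unfolded protein response of the endoplasmic reticulum (ER) that were named by symbol as chaperones, folding enzymes and regulators of the ATF6 and XBP1 arms: HSPA5, HSP90B1, HYOU1, DNAJB9, SDF2L1, PDIA4, CRELD2, MANF, HERPUD1 and XBP1. All 10 were found among the 16655 genes of the deposited table, and all 10 were among the 13002 genes that passed the filter on low counts. They were measured by RNA-seq in HEK-293T cells, which derive from human embryonic kidney and express the large T antigen of SV40. The cells were transfected with the Lipo3000 reagent and harvested with trypsin 24 h later. In the control group (n = 3 libraries) they received the empty pEGFP-C1 vector and expressed GFP alone, and in the RfA1 group (n = 3) they received the same vector with RfA1, a squid reflectin, fused to GFP. The CMV promoter of the vector drives strong expression, and both groups carry GFP and went through the same transfection. The titles do not say whether replicates were separate cultures, so the p-values measure the spread between these libraries, which may be technical. No sort is named, so the libraries hold all cells of a dish, transfected or not, and more RNA of a gene per cell cannot be told apart from more cells that express it.

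When unfolded proteins build up in the ER lumen, 3 sensors of the ER membrane respond. ATF6 moves to the Golgi apparatus, where proteases release its cytosolic part as a transcription factor. IRE1 removes an intron from the XBP1 messenger RNA, so that the active factor XBP1s can be made. PERK phosphorylates eIF2 alpha and thereby favours the translation of ATF4. ATF6 and XBP1s raise the transcription of chaperones, folding enzymes and degradation factors of the ER, to which the genes described here belong. The counts of a gene add up all of its transcripts, so that the spliced and the unspliced form of XBP1 were not separated, and activity of ATF6 or IRE1 was not measured.

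ATF6 and XBP1s reach many of these genes through short promoter elements, and exact matches to them in a promoter window of each member are shown. A member without a match may still carry the element outside its window or in a variant form. The ER stress response element (ERSE) was searched as CCAAT, the part bound by NF-Y, and CCACG, the part bound by ATF6 or XBP1s, with 9 bases of any kind between them. ERSE-II was searched as ATTGG and CCACG with 1 base of any kind between them. The unfolded protein response element (UPRE) was searched as TGACGTGG. All were searched on both strands of RefSeq promoter windows (build GRCh38.p14), which run from 250 bases before the transcript start to 50 bases after it. Where a gene had several windows, the first in order of genomic position was kept, for the members and for all other genes alike. An ERSE was found in 3 of the 10 members and an ERSE-II in 3 others, against 0.121% and 0.098% of 13259 promoters of genes in the table. These shares are 16 and 13 promoters and include those of the members. The members were named as targets of this response, so the contrast is a description and not a test. The sites are given with 5 flanking bases, 5′ to 3′ on the strand of the gene, with the fixed bases of the motif in capitals and with positions counted from the transcript start at 0:

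HSPA5, ERSE, chr9:125241386-125241414, minus strand, motif bases -66 to -48: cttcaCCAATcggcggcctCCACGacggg
HSP90B1, ERSE, chr12:103930211-103930239, plus strand, motif bases -194 to -176: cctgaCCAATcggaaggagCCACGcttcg
HSP90B1, ERSE, chr12:103930316-103930344, plus strand, motif bases -89 to -71: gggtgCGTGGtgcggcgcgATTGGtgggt
CRELD2, ERSE, chr22:49918549-49918577, plus strand, motif bases -80 to -62: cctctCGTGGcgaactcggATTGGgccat
HERPUD1, ERSE-II, chr16:56932020-56932040, plus strand, motif bases -117 to -107: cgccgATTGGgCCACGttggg
SDF2L1, ERSE-II, chr22:21642109-21642129, plus strand, motif bases -188 to -178: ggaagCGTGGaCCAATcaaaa
HYOU1, ERSE-II, chr11:119057375-119057395, minus strand, motif bases -185 to -175: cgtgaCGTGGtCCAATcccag
HYOU1, ERSE-II, chr11:119057269-119057289, minus strand, motif bases -79 to -69: tgggaCGTGGtCCAATgagta

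HYOU1 also held the single UPRE of the members, at bases -188 to -181, which overlaps the upstream ERSE-II. Sites in the reverse orientation read CGTGG first, and HSP90B1 held an ERSE in each orientation. DNAJB9, MANF, PDIA4 and XBP1 held none of the 3 elements in these windows. For PDIA4 and XBP1 the window lies 3196 and 492 bases inside the gene's outermost RefSeq start, and the region before that outermost start was not searched. The CCACG end alone was present in 10 of 10 members and in 46.6% of all promoters. The whole windows of HSPA5, the member with the textbook ERSE, and of DNAJB9, the member with the largest difference between the groups and no match, follow with the same use of capitals:

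HSPA5 promoter, chr9:125241294-125241593, minus strand: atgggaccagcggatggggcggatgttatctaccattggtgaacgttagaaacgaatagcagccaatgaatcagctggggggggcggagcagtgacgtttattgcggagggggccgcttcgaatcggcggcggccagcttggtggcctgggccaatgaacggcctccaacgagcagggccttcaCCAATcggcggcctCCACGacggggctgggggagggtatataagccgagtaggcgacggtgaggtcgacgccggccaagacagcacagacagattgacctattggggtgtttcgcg
DNAJB9 promoter, chr7:108569624-108569923, plus strand: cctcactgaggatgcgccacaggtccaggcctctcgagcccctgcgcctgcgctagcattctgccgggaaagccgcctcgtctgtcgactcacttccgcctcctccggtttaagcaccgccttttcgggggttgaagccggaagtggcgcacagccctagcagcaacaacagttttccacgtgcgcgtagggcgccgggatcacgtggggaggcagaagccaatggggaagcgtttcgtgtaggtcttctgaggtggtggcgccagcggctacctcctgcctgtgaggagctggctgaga

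**Figure D1:**
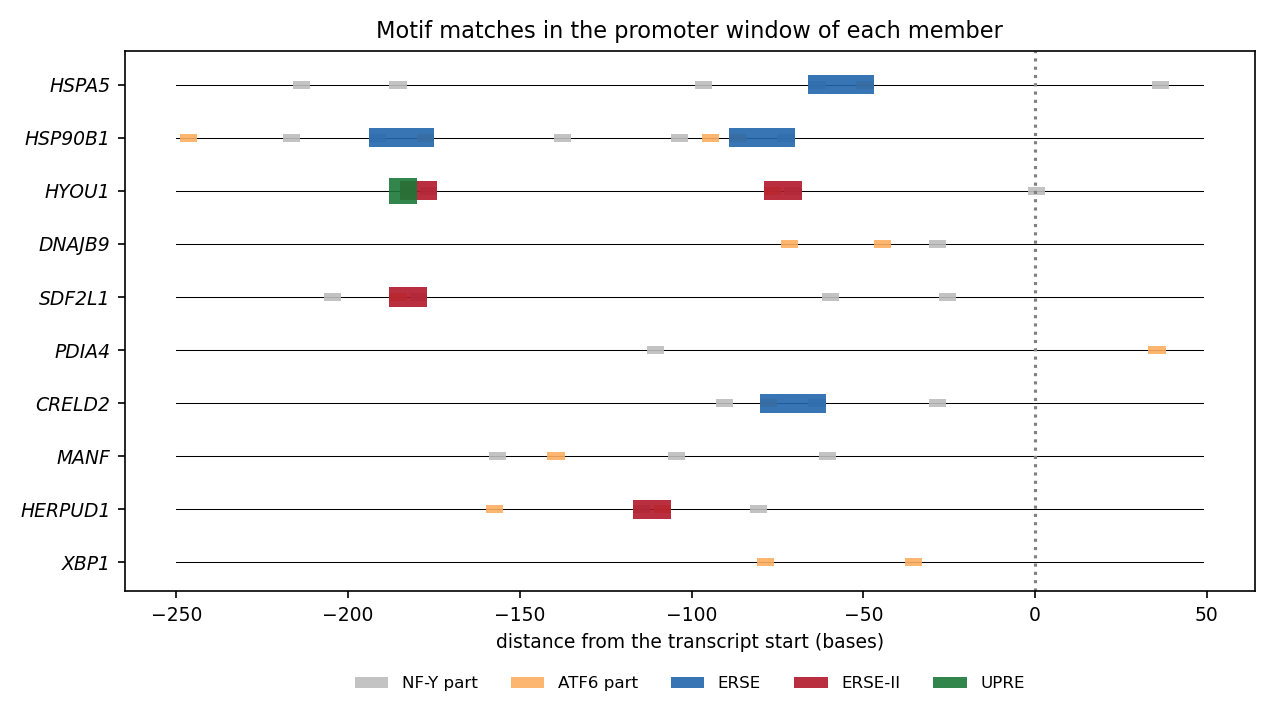
Matches to promoter elements in the window of each member, by distance from the transcript start in bases (dotted line at 0). Blue bars are ERSE, red bars ERSE-II and the green bar the UPRE, while small grey and orange bars are the parts of the ERSE bound by NF-Y and by ATF6 on their own. ERSE matches are seen in HSPA5, HSP90B1 and CRELD2 and ERSE-II matches in HYOU1, SDF2L1 and HERPUD1.

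The libraries held 10272306 to 11566284 counts. The markers of the line were present, with all 8 of VIM, KRT8, KRT18, NEFL, NEFM, INA, LHX1 and PAX2 at 1 TPM or more in every library. Summed markers of blood, endothelial, fibroblast, liver and plasma cells stayed between 0 and 10.6 TPM. The deposited table held only 4 of 5 blood, 3 of 4 fibroblast, 2 of 3 liver and 2 of 3 plasma cell markers. Among these, COL1A1 reached 10.05 TPM and CD68 6.69 TPM, above INA of the line with at most 1.74 TPM. The libraries stood apart along base composition, and not along the groups alone. The GC balance of a library is the mean log2 expression of genes with a transcript GC content of at least 57.5% minus that of genes with at most 42.3%, each gene taken relative to its mean over the 6 libraries. It was -0.082, 0.28 and 0.17 in GFP replicates 1, 2 and 3 and -0.25, 0.20 and -0.32 in RfA1 replicates 1, 2 and 3. RfA1 replicate 2 thus lay with GFP replicates 2 and 3, and values without it are given beside the members and lists. As an alternative, the trend of expression with transcript GC was removed from every library before the test.

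By edgeR (quasi-likelihood, p-values adjusted by Benjamini-Hochberg over 13002 genes), 0 of the 10 members passed at 0.05, against 0.0769% of all genes. DESeq2 and limma also called 0 members. At an unadjusted p of 0.05, 4 of the 10 members were higher with RfA1 (DNAJB9, HERPUD1, HSPA5 and XBP1) and 0 were lower, against 7.3% of all tested genes higher and 6.64% lower. In 5 of the 10 members, those 4 and HSP90B1, the CPM of all 3 RfA1 libraries lay above that of all 3 GFP libraries, as in 9.86% of all genes, and in 0 members below, as in 8.01%. Scaled by total counts, by TPM or after the GC correction, the number was again 5, with PDIA4 in place of HSP90B1. The share of all genes was not counted under these scalings, so the background of that number is not known. The members were chosen with earlier results of these data known. Counts of members beside shares of all genes are therefore a description and not an independent test. On the TPM scale the median log2 difference of all genes was 0.045 (limma). After the GC correction 2 members, DNAJB9 and HERPUD1, passed an adjusted p of 0.05 as higher with RfA1, against 1.12% of all genes, and 0 as lower, against 0.438%. At an unadjusted p of 0.05 that fit had 5 members higher, the 4 named above and MANF, and 0 lower. Of all 13002 genes 1221 were then higher and 875 lower. Without RfA1 replicate 2, DNAJB9, HERPUD1 and HSPA5 passed as higher and SDF2L1 and CRELD2 as lower, but 8.56% of all genes then passed as higher and 11.5% as lower. In that fit the log2 fold changes of the other members were 0.18 for XBP1, 0.16 for HSP90B1, 0.069 for MANF, 0.024 for PDIA4 and -0.070 for HYOU1. The median log2 fold change of the 10 members was 0.11, beside -0.0024 for all tested genes.

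**Figure D2:**
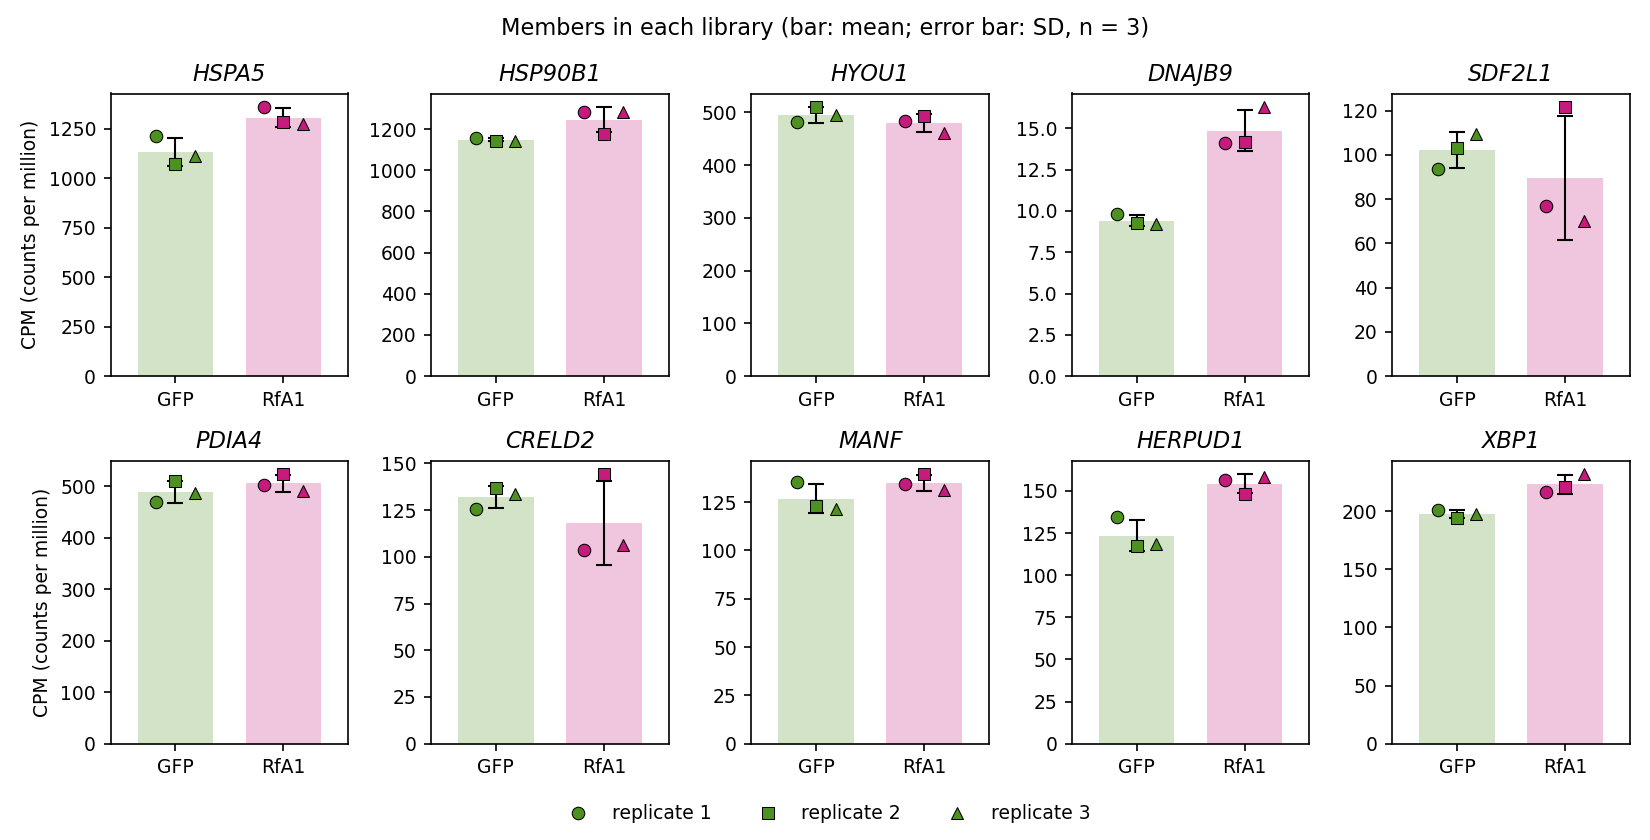
Expression of the 10 members in each library, as CPM normalized by TMM, with 1 panel per gene and axes from 0. Bars are means, error bars are SDs (n = 3), and circles, squares and triangles are replicates 1, 2 and 3. The RfA1 points of DNAJB9, HERPUD1, HSPA5, HSP90B1 and XBP1 all lie above the GFP points, while RfA1 replicate 2 of SDF2L1 and CRELD2 lies far above the other RfA1 replicates.

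The master chaperones of the lumen come first. HSPA5 (Gene ID 3309), also known as BiP, is the HSP70 of the ER that binds unfolded chains and keeps the sensors inactive. Its CPM was 1211, 1071 and 1111 in GFP replicates 1, 2 and 3 and 1359, 1285 and 1272 in RfA1 replicates 1, 2 and 3. The groups did not overlap, but the gap between them was smaller than the range of the GFP libraries. The RfA1 to GFP ratio was 1.15 (95% interval 1.03 to 1.29), a log2 fold change of 0.21 (SE 0.076, edgeR, adjusted p = 0.294). It was positive in all 16 alternatives, from 0.16 with the GC correction to 0.27 on the TPM scale, where the median of all genes was 0.045.

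HSP90B1 (Gene ID 7184), or GRP94, is the HSP90 of the ER and folds, among others, integrins and Toll-like receptors. Its CPM was 1155, 1144 and 1144 in GFP cells (replicates 1, 2 and 3) against 1282, 1176 and 1281 in RfA1 cells. The GFP libraries were nearly equal (SD 6.65), whereas RfA1 replicates 1 and 3 lay well above them and replicate 2 just above. The log2 fold change was 0.12 (95% interval -0.037 to 0.27, edgeR, adjusted p = 0.451). After the GC correction the difference was 0.039 and the groups overlapped. Processed copies of HSP90B1 exist in the genome, and how shared reads were assigned is not given in the sources used here.

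HYOU1 (Gene ID 10525), or GRP170, is a large relative of HSP70 that serves HSPA5 as nucleotide exchange factor. Its CPM was 481, 510 and 495 in GFP cells (replicates 1, 2 and 3) against 483, 494 and 460 in RfA1 cells. The groups overlapped, and the log2 fold change was -0.048 (95% interval -0.21 to 0.11, edgeR, adjusted p = 0.772). The interval of the ratio, 0.866 to 1.08, leaves room for a small difference in either direction, and the GC correction turned the sign to 0.022. HYOU1, with a pair of ERSE-II matches, and HSPA5, with an ERSE, therefore gave different values in the same libraries, but the difference between the genes was not tested.

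DNAJB9 (Gene ID 4189), or ERdj4, is a J-domain protein that presents misfolded chains to HSPA5 and restrains IRE1, and it is a classical XBP1s target. Its CPM was 9.81, 9.27 and 9.18 in GFP replicates 1, 2 and 3 and 14.1, 14.2 and 16.3 in RfA1 replicates 1, 2 and 3. The groups stood well apart, since the gap between the lowest RfA1 and the highest GFP library was larger than the whole range within either group. These values rest on 104 to 109 counts per GFP library and 149 to 171 per RfA1 library, the fewest of the members. The RfA1 to GFP ratio was 1.58 (95% interval 1.32 to 1.89), a log2 fold change of 0.66 (SE 0.12, edgeR, adjusted p = 0.0981), and its p-value was number 18 in order among 13002 genes. The log2 fold change was 0.56 after the GC correction (edgeR, adjusted p = 0.0114) and 0.69 without RfA1 replicate 2 (edgeR, adjusted p = 0.003135). With the other libraries left out in turn it stayed between 0.59 and 0.69 without passing.

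SDF2L1 (Gene ID 23753) forms a stable complex with J-domain proteins of the ER and helps to keep HSPA5 clients from aggregating. Its CPM was 93.6, 103 and 110 in GFP replicates 1, 2 and 3 and 76.8, 122 and 70.2 in RfA1 replicates 1, 2 and 3. RfA1 replicate 2 was the highest of all 6 libraries and RfA1 replicates 1 and 3 the lowest, so that the GFP libraries lay between them. The log2 fold change was -0.19 (95% interval -0.56 to 0.18, edgeR, adjusted p = 0.605), with the widest interval of the members. Without RfA1 replicate 2 it was -0.47 (edgeR, adjusted p = 0.00176), and -0.022 was the value after the GC correction (edgeR, adjusted p = 0.928).

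PDIA4 (Gene ID 9601), or ERp72, is a protein disulfide isomerase. Its CPM was 469, 511 and 488 in GFP cells (replicates 1, 2 and 3) against 503, 523 and 491 in RfA1 cells. The groups overlapped with the TMM scaling, and the log2 fold change was 0.048 (95% interval -0.11 to 0.21, edgeR, adjusted p = 0.777). On the TPM scale they did not overlap. The GFP libraries had 261, 270 and 266 TPM and the RfA1 libraries 294, 278 and 289 TPM. The log2 difference on that scale was 0.11 (limma, adjusted p = 0.515), beside a median of 0.045 for all genes. A ratio above 1.16 or below 0.925 lies outside its interval.

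CRELD2 and MANF are small soluble proteins of the ER, of which MANF is also secreted under stress. CRELD2 (Gene ID 79174), a disulfide isomerase with EGF-like repeats, had a CPM of 125, 137 and 133 in GFP cells (replicates 1, 2 and 3) against 104, 144 and 107 in RfA1 cells. The order of the libraries was like that of SDF2L1, in that RfA1 replicate 2 was the highest and RfA1 replicates 1 and 3 were the lowest. The log2 fold change was -0.16 (95% interval -0.42 to 0.097, edgeR, adjusted p = 0.533), -0.33 without RfA1 replicate 2 (edgeR, adjusted p = 0.00668) and -0.022 after the GC correction (edgeR, adjusted p = 0.907). MANF (Gene ID 7873), which binds the nucleotide-binding domain of HSPA5, had a CPM of 135, 123 and 122 in GFP cells (replicates 1, 2 and 3) against 134, 139 and 131 in RfA1 cells. GFP replicate 1 lay among the RfA1 libraries and the other GFP libraries below them, and the log2 fold change was 0.092 (95% interval -0.081 to 0.26, edgeR, adjusted p = 0.595). For MANF it was 0.15 after the GC correction (edgeR, adjusted p = 0.260) and 0.069 without RfA1 replicate 2.

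HERPUD1 (Gene ID 9709) is a membrane protein that organizes the HRD1 ubiquitin ligase in ER-associated degradation, and it answers to both ATF6 and the PERK arm. Its CPM was 134, 118 and 119 in GFP replicates 1, 2 and 3 and 156, 148 and 159 in RfA1 replicates 1, 2 and 3. The groups did not overlap, and the 3 RfA1 libraries were close together. The highest GFP library was replicate 1, the GFP library with a GC balance below 0. The RfA1 to GFP ratio was 1.25 (95% interval 1.10 to 1.42), a log2 fold change of 0.32 (SE 0.083, edgeR, adjusted p = 0.220). It was 0.29 after the GC correction (edgeR, adjusted p = 0.0137) and 0.35 without RfA1 replicate 2 (edgeR, adjusted p = 0.00518).

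XBP1 (Gene ID 7494) encodes the transcription factor of the IRE1 arm and is itself a target of ATF6. Its CPM was 201, 194 and 198 in GFP cells (replicates 1, 2 and 3) against 217, 221 and 232 in RfA1 cells. The groups did not overlap, and the GFP libraries were close together (SD 3.32). The RfA1 to GFP ratio was 1.13 (95% interval 1.01 to 1.26), a log2 fold change of 0.17 (SE 0.074, edgeR, adjusted p = 0.339). The value with the GC correction was again 0.17 (edgeR, adjusted p = 0.121), and the range over the 16 alternatives was 0.15 to 0.23.

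**Figure D3:**
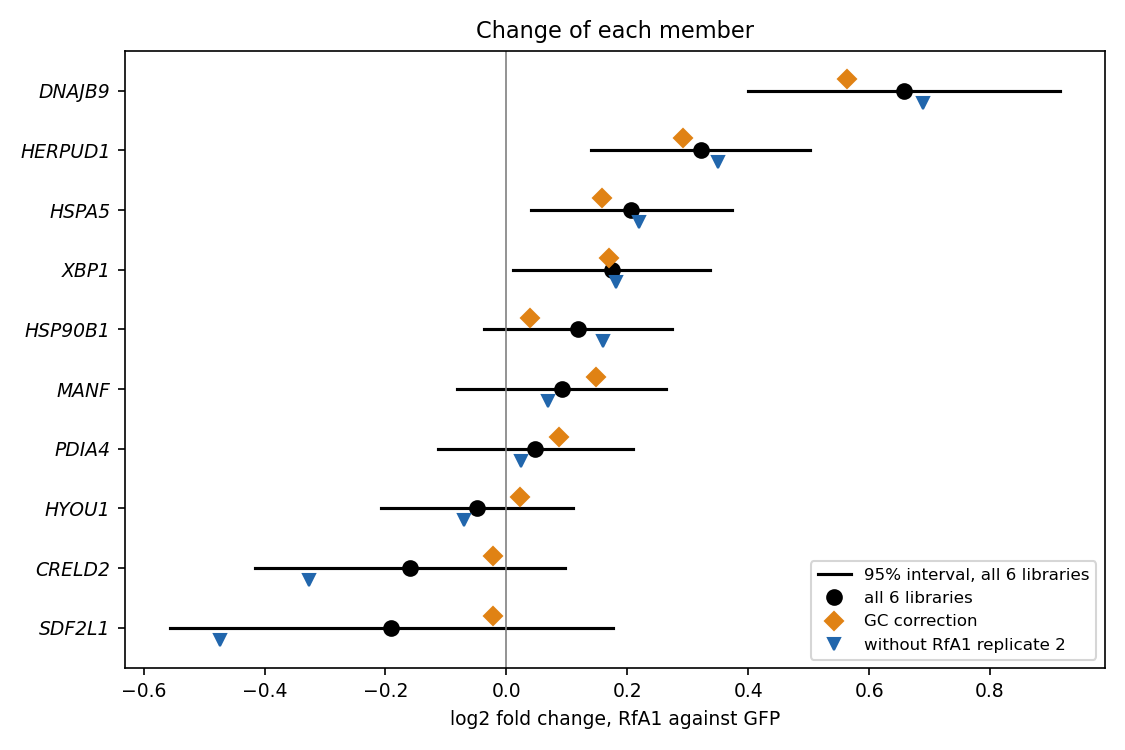
Log2 fold change of each member, RfA1 against GFP, sorted by value. Black points and lines are the estimate and 95% interval from all 6 libraries, orange diamonds the values after the GC correction and blue triangles those without RfA1 replicate 2. DNAJB9, HERPUD1, HSPA5 and XBP1 have intervals above 0, and the 3 estimates differ most in SDF2L1 and CRELD2.

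The members differed in base composition, and the values of SDF2L1 and CRELD2 moved with it. Their transcripts had a GC content of 65.5% and 60.7%, higher than in 96.2% and 85.2% of the genes of the table, whereas DNAJB9 had 40.4%, HSP90B1 42.4%, HSPA5 46.0%, HERPUD1 47.9% and XBP1 50.1%. The 3 libraries with a GC balance above 0 (GFP replicates 2 and 3 and RfA1 replicate 2) held the 3 highest values of SDF2L1 and of CRELD2, and the 3 libraries with a balance below 0 held the 3 lowest. The part of base composition in their values was not tested beyond the GC correction. DNAJB9, poor in GC, was highest within each group in the library with the lowest balance (9.81 CPM in GFP replicate 1 and 16.3 CPM in RfA1 replicate 3), and the correction moved its log2 fold change from 0.66 to 0.56. After the GC correction, the lowest RfA1 library of DNAJB9 was at 13.1 and the highest GFP library at 10.0 on the CPM scale, and the lowest and highest of HERPUD1 were 151 and 133.

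**Figure D4:**
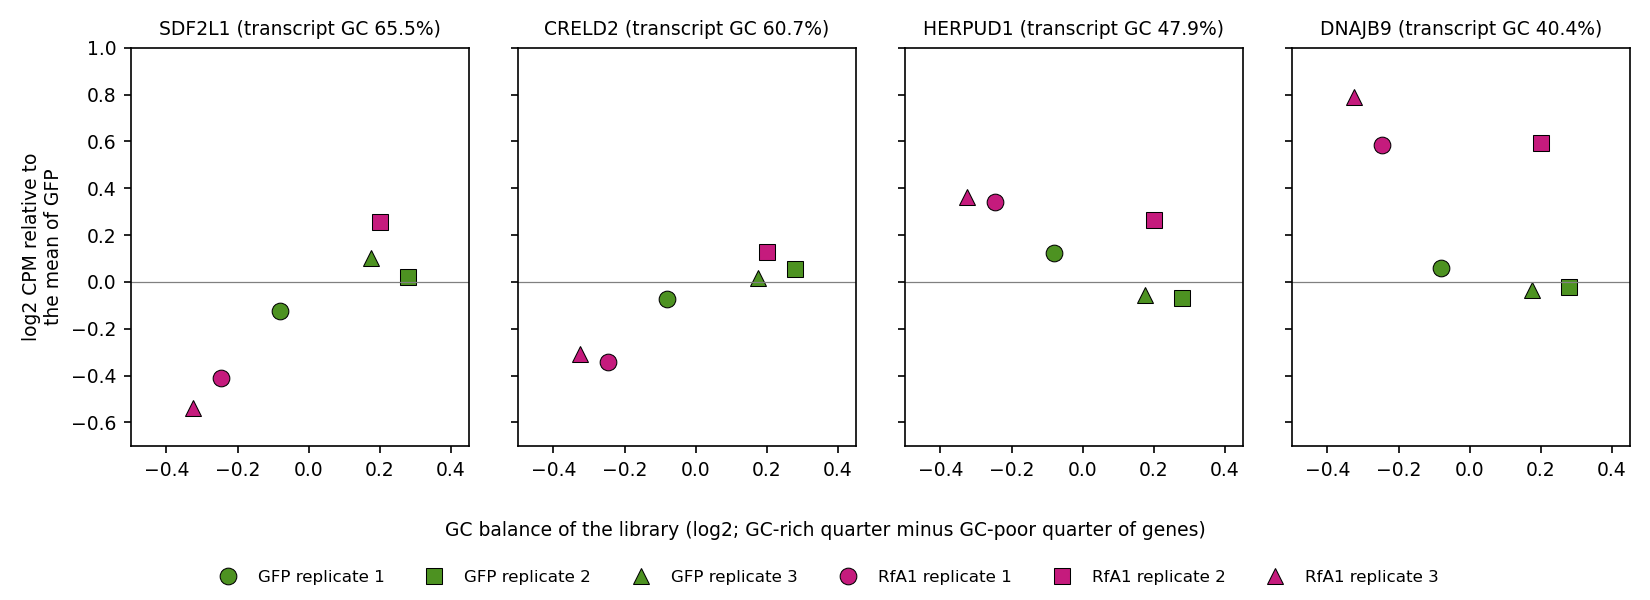
Expression of SDF2L1, CRELD2, HERPUD1 and DNAJB9 in each library (log2 CPM minus the GFP mean) against the GC balance of the library (log2). Green symbols are GFP and pink symbols RfA1 libraries, with circles, squares and triangles for replicates 1, 2 and 3. SDF2L1 and CRELD2 lie lower in the 3 libraries with a balance below 0, and the RfA1 libraries of HERPUD1 and DNAJB9 lie above the GFP libraries on both sides of 0.

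On the TPM scale, which is per transcript length and so allows levels of different genes to be compared, the members spanned a wide range. In GFP cells HSP90B1 was the highest with 621 ± 19.2 TPM (SD, n = 3), followed by HSPA5 with 422 ± 37.5. MANF (267 ± 21.9), PDIA4 (266 ± 4.41) and SDF2L1 (247 ± 17.0) came next, and neighbours among these 3 overlapped in their libraries. XBP1 (173 ± 7.42), HYOU1 (159 ± 0.762) and CRELD2 (154 ± 4.51) followed without overlap between neighbours. HERPUD1 had 65.1 ± 6.46 TPM and DNAJB9 5.98 ± 0.350. All members but DNAJB9 stood at or above the percentile 87.7 of the genes of the table, whereas DNAJB9 stood at 44.4. The largest ratio was thus found in the member with the lowest level. In RfA1 cells HSP90B1 had 705 ± 71.5, HSPA5 508 ± 37.7, HERPUD1 84.9 ± 7.47 and DNAJB9 9.87 ± 1.20 TPM (SD, n = 3), and the order of the 10 means was that of GFP cells. There MANF and PDIA4, PDIA4 and SDF2L1, SDF2L1 and XBP1, and HYOU1 and CRELD2 overlapped as neighbours.

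Other genes of the pathway were taken from lists written by hand, without the members, and described by counts, beside 49.5% of all tested genes with a positive log2 fold change and, at an unadjusted p of 0.05, 7.3% higher and 6.64% lower. In the list of ER protein folding, 5 of 30 tested genes were higher and 1 was lower at an unadjusted p of 0.05, 0 passed the adjusted p in edgeR's test, and the median log2 fold change was 0.054. ERO1A, the oxidase that recharges disulfide isomerases, had 44.0 ± 2.79 CPM in GFP and 54.7 ± 4.19 in RfA1 cells (SD, n = 3), a log2 fold change of 0.32 (edgeR, adjusted p = 0.251). DNAJC3, a further J-domain partner of HSPA5, had a log2 fold change of 0.32 (edgeR, adjusted p = 0.264) and MESD, a chaperone of LDL receptor relatives, 0.21 (edgeR, adjusted p = 0.293). In these 3 genes the groups did not overlap, and after the GC correction ERO1A had 0.21.

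The degradation list had 4 genes higher and 2 lower of 30 at an unadjusted p of 0.05, with a median of 0.059. Its smallest p-values were those of FAF2, which recruits the VCP segregase to the ER, with a log2 fold change of 0.24, of DERL3 with -0.23 and of DERL1 with 0.23 (edgeR, adjusted p = 0.295, 0.313 and 0.320). DERL3 and DERL1 are derlins, channel-forming proteins of the same pathway, and had opposite signs in these libraries. The transcript GC content of DERL3 was 59.9% and that of DERL1 44.9%, and after the GC correction their values were -0.094 and 0.17.

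Among 33 genes of translocation into the ER, 29 had a positive log2 fold change, with a median of 0.11, but 3 were higher and 0 lower at an unadjusted p of 0.05. STT3A, a catalytic subunit of the oligosaccharyltransferase, SSR3 of the translocon-associated protein complex and SPCS3 of the signal peptidase had 0.23, 0.22 and 0.20 (edgeR, adjusted p = 0.347, 0.349 and 0.357). These transcripts are poor in GC (mean of the list 44.8%, beside 51.6% for the members), and the GC correction brought the median to 0.060, SSR3 to 0.12 and SPCS3 to 0.069. For the membrane and COPII trafficking list, 4 of 30 genes were higher and 0 lower, with a median of 0.081. KDELR3 and KDELR2, receptors that return chaperones such as HSPA5 from the Golgi apparatus, had 0.46 and 0.24, and SAR1B, the GTPase that starts the COPII coat, had 0.29, or 0.19 after the GC correction (edgeR, adjusted p = 0.267, 0.292 and 0.291).

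The sensors and activating proteases, 12 genes, had a median of -0.058, and 1 was higher and 0 lower at an unadjusted p of 0.05. EIF2AK3, which encodes PERK, had a log2 fold change of 0.32 (edgeR, adjusted p = 0.297), ATF6B -0.21 (edgeR, adjusted p = 0.362) and BLOC1S1, whose RNA is a known substrate of IRE1, -0.29 (edgeR, adjusted p = 0.415). ATF6B and BLOC1S1 were lower in RfA1 replicates 1 and 3 than in replicate 2, which lay among the GFP libraries. After the GC correction ATF6B had -0.11 and BLOC1S1 -0.20 (edgeR, adjusted p = 0.406 and 0.463). Without RfA1 replicate 2 ATF6B had -0.31 and BLOC1S1 -0.51.

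The PERK and ATF4 arm had 4 genes higher and 4 lower of 22 at an unadjusted p of 0.05, with a median of -0.050. The GC correction turned the median to 0.036. After it 4 genes passed the adjusted p as higher, beside 1.12% of all genes, and 0 as lower, beside 0.438%. With the replicate number as a block, 4 passed as higher and 3 as lower, where 309 and 316 of all 13002 genes did. ATF3, a stress-induced transcription factor, was the 1 gene of all these lists past the adjusted p in edgeR's test of all 6 libraries without correction or block. It rose from 112 ± 3.22 to 176 ± 6.28 CPM (SD, n = 3), a log2 fold change of 0.64 (edgeR, adjusted p = 0.0109). NFE2L2, the factor of the oxidative stress response, had 0.36 (edgeR, adjusted p = 0.175) and ADM2, a secreted peptide, -0.47 (edgeR, adjusted p = 0.181). After the GC correction NFE2L2 passed with 0.30 (edgeR, adjusted p = 0.0186), and ADM2 had -0.29 (edgeR, adjusted p = 0.199).

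Without RfA1 replicate 2, the genes past the adjusted p numbered 5 higher and 3 lower in ER protein folding, 3 and 1 in degradation, 5 and 0 in translocation, 8 and 0 in trafficking, 1 and 2 among the sensors and 3 and 5 in the PERK and ATF4 arm, in a fit where 8.56% and 11.5% of all genes passed. The list medians were then 0.036, 0.12, 0.16, 0.16, -0.0051 and -0.062 in the same order. All genes named from these lists but MESD, DERL3 and SPCS3 passed in that fit, each in the direction it had with all 6 libraries.

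**Figure D5:**
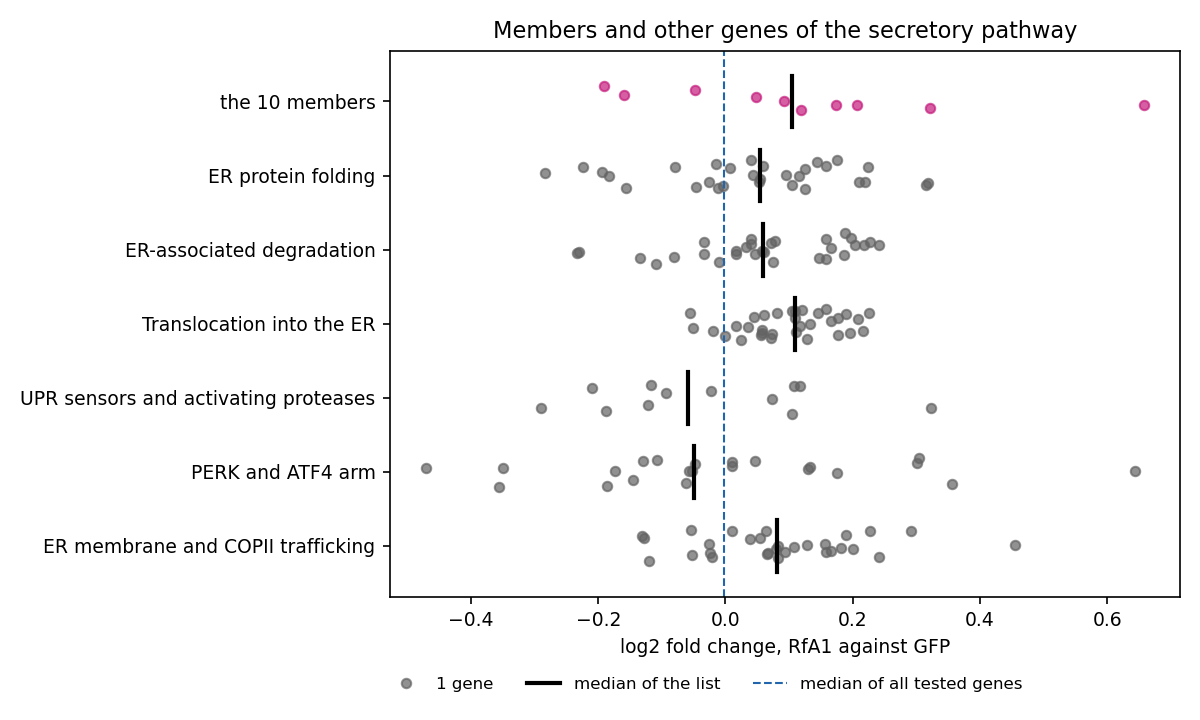
Log2 fold change, RfA1 against GFP, of the 10 members (pink) and of the genes of the 6 other lists (grey), with 1 point per gene, spread vertically for visibility. Black bars are list medians and the dashed line is the median of all tested genes. The medians run from -0.058 for the sensors to 0.11 for translocation into the ER and for the members.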

How the data were processed

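RNA-seq of 3 GFP and 3 RfA1 libraries was analysed, grouped by the sample titles. The authors deposited 1 table with estimated counts per gene (7.39% to 8.02% of them not whole), and with TPM and FPKM of each library, which the authors scaled by transcript length and depth. The deposited FPKM and the deposited group averages were not used. The submitters' processing notes name HISAT and GRCh38.p13. The counting tool and annotation are not given in the sources used here, nor is the strand setting, so reads of overlapping genes may be shared. RfA1 transcripts were not analysed here.

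Counts were rounded, filtered with filterByExpr (minimum count 10, minimum total 15), normalized by TMM and compared with edgeR 4.0.16 (robust quasi-likelihood test, two-sided, Benjamini-Hochberg adjustment) in R 4.3.3, and the scripts were tested on simulated data. Standard errors and 95% intervals come from its F statistic. The biological coefficient of variation, from the common dispersion that edgeR estimated over all genes, was 8.83%. It does not include counting error. No 2 libraries agreed within sampling noise (chi-square per degree of freedom 1.92 or more), so all were kept as replicates. Alternatives were other filters and normalizations, DESeq2 1.42.0, limma 3.58.1 on log2(TPM + 1), the replicate number as a block, a GC correction (spline with 5 degrees of freedom on GENCODE 29 transcripts, which matched 98.3% of genes) and each library left out. The members and lists were chosen with earlier results of these data known. All members were named, and from each list the 3 genes with the smallest p. Promoter windows are from RefSeq (GRCh38.p14) and were matched for all 10 members. Figures were drawn with matplotlib 3.10.9.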

Additional observations from a re-analysis of the deposited data

How the results depend on the processing

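Of 160 values of single members under 16 alternatives, 146 kept their direction and their side of an adjusted p of 0.05, 11 newly passed and 3 changed sign, all of HYOU1 (0.011 with limma on TPM, where the median of all genes was 0.045 and HYOU1 thus stayed below it, 0.022 with the GC correction and 0.022 with the correction and the replicate block). The number of members past the adjusted p was 0 in edgeR's test (4 at an unadjusted p of 0.05), 2 with the replicate block (DNAJB9 and HERPUD1), 2 with the GC correction and 2 with both. With 1 library left out it ran from 0 to 5, the 5 being without RfA1 replicate 2. That fit keeps the RfA1 libraries with the lowest GC balance. The number higher at an unadjusted p of 0.05 ran from 2 to 5 with 1 library left out, with 2 without GFP replicate 2, GFP replicate 3 or RfA1 replicate 1. For these fits the share of all genes at an unadjusted p of 0.05 was not counted. Among all 13002 genes, 10 passed (8 higher and 2 lower), against 20 of 16618 genes without a filter and, of the 13002, 6 with upper-quartile normalization (4 higher and 2 lower), 33 with DESeq2 (17 higher and 16 lower), 4 with limma on TPM (4 higher and 0 lower), 625 with the replicate block, 203 with the GC correction (146 higher and 57 lower) and 459 with both. With 1 library left out, which tested 13079 to 13129 genes, the count ran from 0 (without GFP replicate 2 or 3) to 2636 (without RfA1 replicate 2), and it was 1, 2 and 4 without GFP replicate 1, RfA1 replicate 1 and RfA1 replicate 3. Where a cause is not named here, the cause was not tested. The titles do not say whether the replicate numbers pair the libraries. Deviations of same-numbered libraries correlated by 0.21, 0.37 and -0.16 across genes, and those of GFP replicate 1 and RfA1 replicate 3 by 0.39. With 3 libraries per group these values cannot decide about pairing, so the replicate block is given as an alternative only. The number of members with groups that do not overlap was 5 or 6 in each alternative chosen after the data were seen, namely other scalings and each library left out. The share of all genes was not counted in these alternatives. Smaller groups also separate more easily, so the counts with a library left out do not show that the result is stable. With 104 to 109 counts per GFP library, DNAJB9 has the largest counting error of the members.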

Other observations

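Outside the members, 23 genes of the table held an ERSE or ERSE-II in their RefSeq promoter window, and 20 of them were tested. This list was taken from the sequences after the expression values had been seen, so its values are a description. At an unadjusted p of 0.05, 3 of the 20 were higher and 2 lower with RfA1, beside 7.3% and 6.64% of all tested genes. In edgeR's test 0 passed the adjusted p, against 0.0769% of all genes. The 10 genes with an ERSE had a median log2 fold change of 0.13, with 8 of 10 positive. Those 10 with an ERSE-II had -0.049, with 4 of 10 positive, beside 49.5% of all tested genes. After the GC correction the 2 medians were 0.11 and -0.018. The members did not follow the presence of an element. The 6 members with an ERSE or ERSE-II had a median of 0.035, with 3 of 6 positive. The 4 members without had 0.13, with 4 of 4 positive. A link between element and change was not tested. PDIA6, a disulfide isomerase of the ER with an ERSE, had 0.18 with groups that did not overlap (adjusted p = 0.347 from edgeR's test), and CALR, which encodes the lectin chaperone calreticulin and also has an ERSE, had 0.053 (95% interval -0.14 to 0.25). FICD, the enzyme that AMPylates HSPA5, had 0.40 with groups that overlapped (adjusted p = 0.369 from edgeR's test), and ERO1B had 0.22 (adjusted p = 0.371). The 2 genes lower at an unadjusted p of 0.05 were RAD9A with -0.30 and CNKSR1 with -0.47 (adjusted p = 0.260 and 0.349 from edgeR's test). Both have an ERSE-II, and in both all RfA1 libraries lay below all GFP libraries. FICD and CNKSR1 had a mean log2 CPM of only 2.4 and 2.3, beside 8.7 for PDIA6. All genes of this paragraph were named after their values were seen.

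Relatives of 4 members, also named after their values were seen, gave the following values. SDF2, the relative of SDF2L1, had a log2 fold change of -0.22 with all RfA1 libraries below all GFP libraries (adjusted p = 0.393 from edgeR's test), and CRELD1, the relative of CRELD2, had -0.18 (adjusted p = 0.460). HERPUD2 had 0.057 (adjusted p = 0.842), beside 0.32 for HERPUD1, and CDNF, the relative of MANF, had 0.055 (95% interval -0.51 to 0.62). The differences between the relatives were not tested.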
